A study of Mus musculus with 75 samples.

Results

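The growth hormone and STAT5 dependent liver genes described here are 10 named genes of mouse liver: Hsd3b5, Slco1a1, Cyp7b1, Cyp4a12a, Cyp2d9, Socs2, Ghr, Igf1, Stat5b and Bcl6. They were chosen by name, with earlier results of these data known. Counts of members called, given beside the share of all genes, therefore describe these genes and are no test of the set. A gene counted as measured where the array's probe-to-gene table lists a probe set under its symbol. This held for 9 of the 10, out of 19147 genes tested. Cyp4a12a has no probe set in that table and no value here. Where a gene had several probe sets, the brightest in liver on average was used. Stat5b was the 1 member with several probe sets, 2 in number.

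RNA was hybridised to 75 one-colour arrays, 39 of liver and 36 of epididymal fat. The mice were males labelled CB1 knockout, which lack cannabinoid receptor 1 in all tissues, or wild-type littermates. The knockout line had been back-crossed to C57BL/6J and re-derived on C57BL/6N, and the labels give the strain of every sample as C57BL/6. From 2 months of age they ate a high-fat diet (59.4% of energy from fat) or chow (13%) for 14 weeks. By gavage they then received AM251, an inverse agonist of CB1, at 10 mg per kg or its methylcellulose vehicle late in the afternoon on 2 days, and tissue was taken in the morning after the second dose. The 8 liver groups are high-fat knockout AM251, high-fat knockout vehicle, high-fat wild-type AM251, high-fat wild-type vehicle, chow knockout AM251, chow knockout vehicle, chow wild-type AM251 and chow wild-type vehicle. Each held 5 arrays except high-fat knockout vehicle, which held 4. The knockout is global, so nothing here separates CB1 in hepatocytes from CB1 elsewhere, and the mice were males only, so a bias between the sexes could not be measured.

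Growth hormone binds its receptor, encoded by Ghr, on hepatocytes and activates the kinase JAK2, which phosphorylates STAT5B. STAT5B then enters the nucleus and switches on genes such as Igf1, the main circulating growth factor made by liver, and Socs2, whose product dampens the receptor again. In rodents the pituitary releases growth hormone in pulses in males and more steadily in females, and through STAT5B the pulses keep male-biased liver genes high and female-biased genes low. Hsd3b5, Slco1a1, Cyp7b1, Cyp4a12a and Cyp2d9 are male-biased genes of this kind in mouse liver, and Bcl6 encodes a repressor that opposes STAT5 at shared binding sites.

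Promoter sequences from 250 bases before to 50 bases after the start of transcription were taken from RefSeq on GRCm38.p6, which held 10 such windows for 7 members (Hsd3b5, Slco1a1, Cyp2d9, Ghr, Igf1, Stat5b and Bcl6). Cyp7b1, Socs2 and Cyp4a12a had no entry. They were searched for TTCNNNGAA, the palindrome that STAT5 dimers bind, which reads the same on both strands. Of 32851 promoter windows of the same length, 2726 (8.3%) hold it. Among the members it was found in Bcl6 alone, in both of that gene's windows, and not in the windows of the other 6. The 3 windows below are shown because Hsd3b5 and Slco1a1 had the widest differences between liver groups and because Bcl6 holds the motif. All lie on the minus strand and are written 5′ to 3′, and capitals mark the motif.
Hsd3b5, chr3:98645485-98645784: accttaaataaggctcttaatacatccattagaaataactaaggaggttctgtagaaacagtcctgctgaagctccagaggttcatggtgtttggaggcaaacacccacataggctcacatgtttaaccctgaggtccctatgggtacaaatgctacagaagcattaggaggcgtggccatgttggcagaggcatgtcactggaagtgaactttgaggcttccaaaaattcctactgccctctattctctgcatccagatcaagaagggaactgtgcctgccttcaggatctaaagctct
Slco1a1, chr6:141946913-141947212: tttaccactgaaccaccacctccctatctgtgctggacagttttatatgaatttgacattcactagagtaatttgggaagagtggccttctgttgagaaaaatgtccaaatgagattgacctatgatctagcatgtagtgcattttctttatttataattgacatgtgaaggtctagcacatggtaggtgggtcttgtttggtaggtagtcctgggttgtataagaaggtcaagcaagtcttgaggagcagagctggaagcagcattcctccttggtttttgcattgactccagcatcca
Bcl6, chr16:23981234-23981533: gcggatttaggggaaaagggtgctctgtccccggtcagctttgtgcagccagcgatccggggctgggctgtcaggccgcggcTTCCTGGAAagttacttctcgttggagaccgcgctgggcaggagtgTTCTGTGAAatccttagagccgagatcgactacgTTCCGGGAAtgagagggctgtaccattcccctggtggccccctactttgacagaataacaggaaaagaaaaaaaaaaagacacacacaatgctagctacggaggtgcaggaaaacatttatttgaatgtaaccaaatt
In the Bcl6 window the words TTCCTGGAA, TTCTGTGAA and TTCCGGGAA start 168, 122 and 88 bases before the start of transcription. The second Bcl6 window, chr16:23988803-23989102, holds TTCTCAGAA 118 bases before its start. A match is a description of the letters and not a measured binding site, and windows without one may be bound elsewhere.

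The tissue labels were checked on the same probe sets in both tissues: the log2 of the summed intensity of 6 hepatocyte markers lay between 16.36 and 16.58 on liver arrays and 13.89 and 14.29 on fat arrays, and that of 4 adipocyte markers between 6.28 and 6.91 on liver arrays and 14.61 and 15.07 on fat arrays. Cnr1, the gene of CB1, has 2 probe sets and neither separated the genotypes; in liver they spanned log2 intensities of 5.57 to 6.13 and 2.47 to 3.03 on knockout arrays, against 5.51 to 6.09 and 2.30 to 2.81 on wild-type arrays. Which part of the gene the probe sets match is not given in the sources used here, so they check no genotype label. Chow knockout vehicle arrays 17 and 15 had the lowest mean correlation with the other liver arrays, at 0.974 and 0.983. High-fat wild-type vehicle array 2 had 0.988 and was the lowest array of its group in Hsd3b5, Slco1a1 and Cyp7b1, as given below. On that array the log2 summed intensity of 9 macrophage and Kupffer cell markers was 12.79, against 11.68 to 12.44 on the other 4 arrays of its group, that of 7 stellate cell and fibroblast markers was 12.86 against 12.16 to 12.47, and that of 6 lymphocyte markers 8.77 against 8.28 to 8.61. Its hepatocyte sum was 16.46 against 16.43 to 16.55. The part of these markers in its member values was not tested.

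Hsd3b5, a male-specific steroid dehydrogenase of mouse liver, was low in 1 group of mice, the vehicle-treated wild types on the high-fat diet. On the high-fat diet its log2 intensity was 12.17, 11.97, 12.76 and 12.80 in knockout vehicle livers and 11.89, 12.07, 12.51, 10.57 and 10.67 in wild-type AM251 livers. Against these, wild-type vehicle livers on the same diet had 9.07, 4.42, 11.24, 8.44 and 9.82 on arrays 1 to 5, and chow wild-type vehicle livers had 10.32, 11.44, 12.10, 11.98 and 12.22. The high-fat wild-type vehicle group thus lay wholly below the high-fat knockout vehicle group. It overlapped the AM251-treated and the chow-fed wild types by array 3 alone, while array 2, with an intensity of 21.5 against 348 to 2420 on the other 4, was the lowest of its own group. Group means in descending order were 12.42 ± 0.42 in high-fat knockout vehicle (SD, n = 4), 12.15 ± 0.40 in high-fat knockout AM251, 11.92 ± 0.33 in chow wild-type AM251, 11.65 ± 0.83 in chow knockout vehicle, 11.61 ± 0.78 in chow wild-type vehicle, 11.54 ± 0.87 in high-fat wild-type AM251, 11.35 ± 0.52 in chow knockout AM251 and 8.60 ± 2.56 in high-fat wild-type vehicle livers (n = 5 each). No neighbours in this order differed by more than the larger of their SDs, apart from the last pair. In bulk liver, fewer cells of a type and less RNA per cell cannot be told apart.

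Slco1a1, which encodes an uptake transporter for organic anions such as bile acids and steroid conjugates, had its lowest mean in the same group, but this rests on array 2. High-fat knockout vehicle livers lay close together, at log2 intensities of 10.84, 10.53, 10.63 and 10.63. High-fat wild-type livers had 10.27, 10.50, 10.85, 9.76 and 9.99 after AM251, against 8.19, 4.50, 10.13, 8.56 and 9.52 after vehicle. Array 2 was again the lowest, and array 3 reached into the AM251 range. The means were 10.66 ± 0.13 in high-fat knockout vehicle, 10.49 ± 0.19 in high-fat knockout AM251, 10.27 ± 0.42 in high-fat wild-type AM251, 9.88 ± 0.16 in chow wild-type AM251, 9.64 ± 0.47 in chow wild-type vehicle, 8.94 ± 0.19 in chow knockout AM251, 8.66 ± 0.94 in chow knockout vehicle and 8.18 ± 2.20 in high-fat wild-type vehicle livers (SD). Without array 2 the last group's mean was 9.10 ± 0.88 (n = 4), above both chow knockout groups, whereas for Hsd3b5, at 9.64, and Cyp7b1, at 7.46, it was still the lowest of the 8. Unlike Hsd3b5, the chow-fed knockouts also stood low, and the only neighbours that differed by more than the larger of their SDs were chow wild-type vehicle and chow knockout AM251.

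Cyp7b1, an oxysterol 7-hydroxylase of the alternative route to bile acids, had its lowest mean in high-fat wild-type vehicle livers too. High-fat knockout vehicle livers had log2 intensities of 8.97, 8.61, 9.21 and 9.51. High-fat wild-type livers had 9.22, 8.85, 8.86, 9.38 and 8.70 after AM251, against 7.82, 6.22, 7.55, 6.93 and 7.55 after vehicle. Chow wild-type vehicle livers had 8.04, 8.31, 9.31, 8.61 and 9.33. No high-fat wild-type vehicle array reached the lowest array of any of these 3 groups, but array 1, at 7.82, lay above chow knockout AM251 array 23, at 7.72. Mean levels ran from 9.07 ± 0.38 in high-fat knockout vehicle to 8.20 ± 0.39 in chow knockout AM251 livers over 7 groups whose neighbours differed by less than their SDs, and the high-fat wild-type vehicle group followed at 7.22 ± 0.64 (SD).

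**Figure D1:**
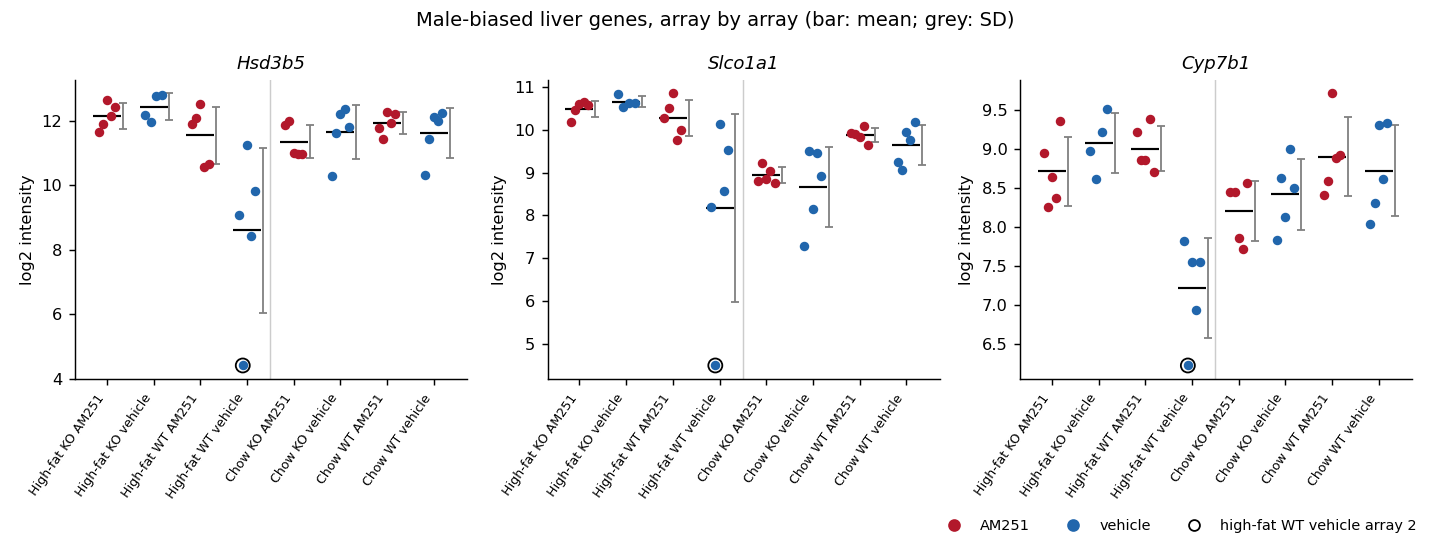
Log2 intensity (y axis) of Hsd3b5, Slco1a1 and Cyp7b1 on each liver array, by group (x axis), with AM251 left of vehicle, knockout left of wild type and high-fat left of chow. Points are arrays, black bars group means and grey lines ± 1 SD; the high-fat wild-type vehicle group has the lowest mean of each gene, for Slco1a1 only with its array 2, and that array, circled, is at 4.42, 4.50 and 6.22.

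In high-fat-fed wild-type livers, AM251 raised these 3 members, and the other 6 did not pass the threshold. Changes are differences of mean log2 intensity ± SE from limma across all genes, with Benjamini-Hochberg adjustment and a threshold of 0.05. Hsd3b5 was higher by 2.94 ± 0.63 (7.69-fold, adjusted p = 0.00474), Slco1a1 by 2.09 ± 0.52 (4.27-fold, adjusted p = 0.0195) and Cyp7b1 by 1.79 ± 0.28 (3.45-fold, adjusted p = 7.54e-05). Of all genes, 1.91% were called in this comparison and 0.888% were called higher, against 3 of the 9 members. The other members differed by 1.33 for Socs2 (95% confidence interval -0.03 to 2.68), 0.41 for Bcl6 (-0.85 to 1.66), 0.22 for Igf1 (0.01 to 0.43), 0.09 for Cyp2d9 (-0.07 to 0.25), 0.01 for Ghr (-0.20 to 0.22) and -0.13 for Stat5b (-0.43 to 0.17). Without vehicle array 2, Hsd3b5 was higher by 1.90 (adjusted p = 0.0148) and Cyp7b1 by 1.54 (adjusted p = 6.40e-04), while Slco1a1, at 1.17, no longer passed (adjusted p = 0.0549); nor did it without AM251 array 35 (adjusted p = 0.0539) or 37 (adjusted p = 0.0679). The shared SE rests on all 8 groups and is smaller than the vehicle group's own spread: with the 2 compared groups alone, Cyp7b1 was the 1 member called, and Hsd3b5 (adjusted p = 0.153) and Slco1a1 (adjusted p = 0.234) were not. The macrophage and Kupffer cell sum spanned 12.12 to 12.71 in AM251 livers and 11.68 to 12.79 in vehicle livers, and its part in these changes was not tested.

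In high-fat-fed knockout livers, which are labelled as lacking the receptor, no member passed the threshold after AM251, and none had an unadjusted p under 0.05; 0.0104% of all genes were called. The differences were -0.28 for Hsd3b5 (95% confidence interval -1.63 to 1.08), -0.17 for Slco1a1 (-1.28 to 0.94), -0.36 for Cyp7b1 (-0.96 to 0.23) and -0.88 for Socs2 (-2.32 to 0.56). The intervals of these 4 members do not reach the estimates in wild types. Tested directly, the AM251 effect in wild types minus that in knockouts was 2.15 ± 0.40 for Cyp7b1 (adjusted p = 0.00372), the 1 member called where 0.564% of genes were, 0.193% as higher. For Hsd3b5 it was 3.22 ± 0.92 (adjusted p = 0.125), for Slco1a1 2.26 ± 0.76 (adjusted p = 0.275) and for Socs2 2.20 ± 0.98 (adjusted p = 0.573). For these, a difference between genotypes was not established. In this contrast 5 members had an unadjusted p under 0.05. Without vehicle array 2 the Cyp7b1 difference was 1.90 (adjusted p = 0.0094). With single arrays left out, that of Hsd3b5 ranged from 2.18 to 3.88 (adjusted p = 0.0207 to 0.275). It passed only without wild-type vehicle array 3, the highest of its group, at 3.88.

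On chow, AM251 called no member in wild types (1 had an unadjusted p under 0.05) and none in knockouts (1 likewise), where 0% and 0.125% of all genes were called. In chow wild-type livers Hsd3b5 differed by 0.30 (95% confidence interval -0.98 to 1.58), Slco1a1 by 0.23 (-0.82 to 1.28) and Cyp7b1 by 0.18 (-0.38 to 0.74). The effect on the high-fat diet minus that on chow in wild types was 1.60 ± 0.39 for Cyp7b1 (adjusted p = 0.0711), 2.64 ± 0.89 for Hsd3b5 (adjusted p = 0.359) and 1.86 ± 0.73 for Slco1a1 (adjusted p = 0.553). No member passed there, though 3 had an unadjusted p under 0.05, and 0.251% of genes were called. With chow wild-type vehicle array 1, chow wild-type AM251 array 12 or high-fat wild-type vehicle array 1 left out, Cyp7b1 passed with adjusted p of 0.0425, 0.025 and 0.0328. It did not pass without any other single array. Over the 20 arrays left out in turn its difference ranged from 1.36 to 1.81, with adjusted p up to 0.189. The genotype difference of the AM251 effect on chow called no member and 0% of genes, and no member had an unadjusted p under 0.05.

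Under vehicle on the high-fat diet, knockout livers exceeded wild-type livers in the same 3 members. Hsd3b5 was higher by 3.82 ± 0.67 (14.2-fold, adjusted p = 0.00139), Slco1a1 by 2.48 ± 0.55 (5.57-fold, adjusted p = 0.0136) and Cyp7b1 by 1.86 ± 0.29 (3.62-fold, adjusted p = 4.64e-04). In all 3 every knockout array lay above every wild-type array, but how many of all genes separate so was not counted. Of all genes, 1.19% were called and 0.48% were called higher. Socs2 differed by 1.77 ± 0.71 (adjusted p = 0.267) and Igf1 by 0.38 ± 0.11 (adjusted p = 0.0735), though Igf1 passed without knockout array 40 at 0.46 (adjusted p = 0.0413). Without wild-type array 2 the 3 differences were 2.78, 1.56 and 1.61 (adjusted p = 0.00162, 0.0194 and 0.00337). Slco1a1 did not pass without knockout array 44 (adjusted p = 0.0532), and with the 2 compared groups alone neither it (adjusted p = 0.175) nor Hsd3b5 (adjusted p = 0.0884) did. The macrophage and Kupffer cell sum spanned 12.33 to 12.57 in these knockout livers and 11.68 to 12.79 in wild-type livers, with none of its 9 genes called and a median difference of 0.13. After AM251 no member passed between the genotypes on this diet, none had an unadjusted p under 0.05, and 2.3% of genes were called.

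The high-fat diet lowered 2 members in vehicle-treated wild types. Hsd3b5 fell by 3.01 ± 0.63 on the log2 scale (adjusted p = 0.00637) and Cyp7b1 by 1.50 ± 0.28 (adjusted p = 0.00149), where 1.69% of genes were called and 0.58% were called lower; Slco1a1 differed by -1.47 ± 0.52 (adjusted p = 0.164). Without high-fat array 2 the values were -1.97 for Hsd3b5 (adjusted p = 0.0157) and -1.25 for Cyp7b1 (adjusted p = 0.013). With single arrays left out, Slco1a1 differed by -1.95 to -0.54 (adjusted p = 0.0338 to 0.585). It passed only without high-fat array 3, and without high-fat array 2 its mean was 9.10, against 9.64 on chow. Hsd3b5 was not called with the 2 compared groups alone (adjusted p = 0.169). Markers of other cells moved in this comparison as well: the 9 macrophage and Kupffer cell genes had a median difference of 0.70 (all genes: -0.01). None of the 9 was called, though 4 had an unadjusted p under 0.05. Their sum spanned 11.68 to 12.79 on high-fat and 10.71 to 12.16 on chow arrays. Ptprc, a marker of all leukocytes, was higher by 0.86 ± 0.21, with no other gene of the 6 on the lymphocyte list called. The endothelial gene Lyve1 was higher by 0.58 ± 0.16, with no other endothelial marker called. The sum of 8 endothelial markers spanned 11.10 to 11.36 on high-fat and 10.42 to 11.44 on chow arrays. Among markers of hepatocyte zones, Cyp1a2 (-1.07 ± 0.17) and Cyp2f2 (-0.46 ± 0.097) were lower, and Hsd17b13 (0.64 ± 0.14) and Gulo (0.42 ± 0.092) higher. The part of these markers in the member changes was not tested. This comparison, the knockout comparison and the AM251 comparison on the high-fat diet share the same 5 high-fat wild-type vehicle arrays, so their values stand side by side and are not independent of each other. In AM251-treated wild types no member passed between the diets, none with an unadjusted p under 0.05, where 1.96% of genes were called.

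**Figure D2:**
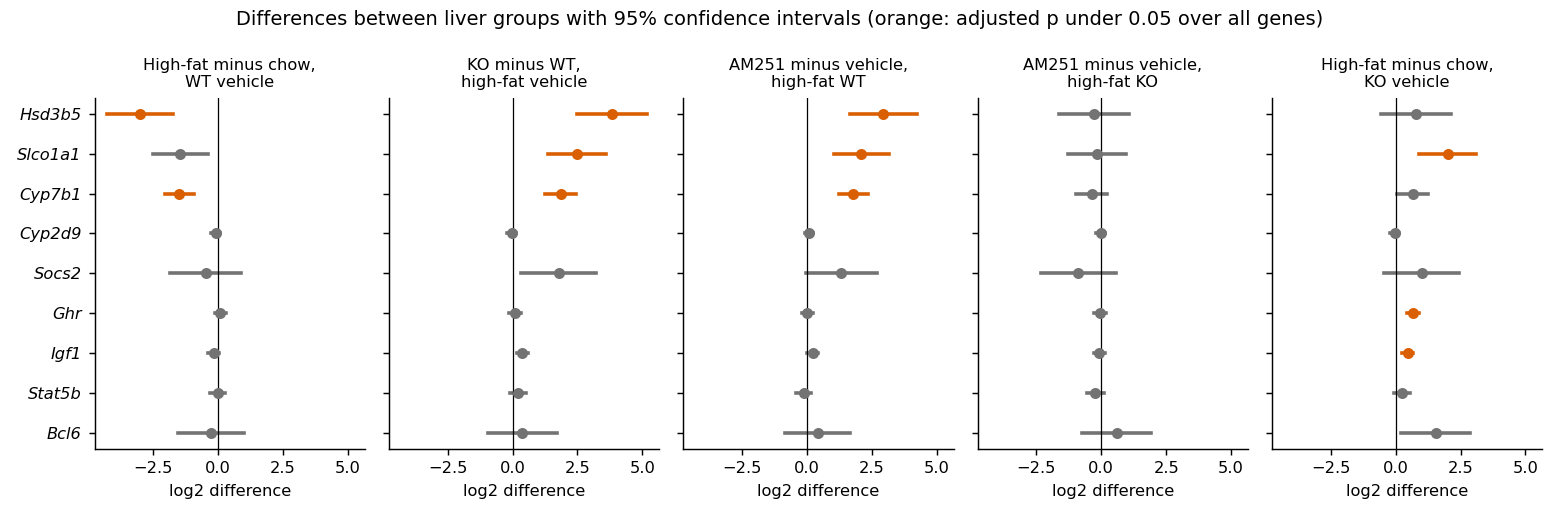
Difference of mean log2 intensity (x axis) for each measured member (rows) in 5 liver comparisons, with 95% confidence intervals; orange marks adjusted p under 0.05 over all genes. Hsd3b5, Slco1a1 and Cyp7b1 carry the wide differences in the first 3 panels, which share the high-fat wild-type vehicle arrays, at -3.01, -1.47 and -1.50, at 3.82, 2.48 and 1.86, and at 2.94, 2.09 and 1.79.

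In vehicle-treated knockouts the high-fat diet raised 3 members and lowered none. Slco1a1 was higher on the high-fat diet than on chow by 2.00 ± 0.55 (adjusted p = 0.0109), Ghr by 0.66 ± 0.11 (adjusted p = 1.14e-04) and Igf1 by 0.46 ± 0.11 (adjusted p = 0.00318). This comparison called 17% of all genes, 8.63% as higher, so 3 of 9 members is nearer to the background than in the comparisons above. Without chow knockout vehicle arrays 15 and 17, Ghr stayed called at 0.46 (adjusted p = 0.00561), and Slco1a1 at 1.36 (adjusted p = 0.159) and Igf1 at 0.37 (adjusted p = 0.0523) did not. Slco1a1 also missed the threshold with array weights, at 1.78 (adjusted p = 0.0524), and Igf1 with the 2 compared groups alone, at 0.46 (adjusted p = 0.0675). Among cell markers the hepatocyte genes Apob (1.70 ± 0.35) and Ahsg, the endothelial genes Pecam1 (0.73 ± 0.18) and Stab2 and the stellate and fibroblast genes Dcn and Reln were higher here, and the cholangiocyte gene Krt19 was lower (-0.69 ± 0.16); their part was not tested. The diet effect in knockouts minus that in wild types was 3.79 ± 0.92 for Hsd3b5 (adjusted p = 0.0144), 3.46 ± 0.76 for Slco1a1 (adjusted p = 0.00783), 2.16 ± 0.40 for Cyp7b1 (adjusted p = 0.00191), 0.58 ± 0.15 for Ghr (adjusted p = 0.0243) and 0.64 ± 0.15 for Igf1 (adjusted p = 0.0114). These are 5 of the 9 members where 4.17% of genes were called, 2.84% as higher. Without high-fat wild-type vehicle array 2 the first 3 were 2.74, 2.54 and 1.91 and passed, as Igf1 did at 0.59 (adjusted p = 0.0279), while Ghr was 0.54 (adjusted p = 0.0547). Ghr also did not pass without high-fat knockout vehicle array 40 (adjusted p = 0.0676) or chow knockout vehicle array 15 (adjusted p = 0.0505). Without chow knockout vehicle arrays 15 and 17 only Cyp7b1 passed, at 1.87 (adjusted p = 0.0215), and the other 4 had adjusted p between 0.0603 and 0.153.

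Ghr, the receptor gene, varied little within groups and was lowest in the chow-fed knockouts. Its log2 intensity there was 11.98, 12.03, 12.07, 11.80 and 12.21 after AM251 and 11.28, 11.80, 11.67, 12.18 and 11.90 after vehicle. Chow wild-type AM251 livers spanned 12.28 to 12.54, and chow wild-type vehicle livers had 12.42, 12.02, 12.11, 12.31 and 12.39. Vehicle-treated knockouts on chow were lower by 0.49 ± 0.11 than wild types (adjusted p = 0.00351), with array 18 inside the wild-type range, and 6.77% of genes were called, 3.83% as lower. In the same comparison the Kupffer cell genes Cd5l (1.06 ± 0.29) and Clec4f (0.55 ± 0.17) and the cholangiocyte genes Krt19 (0.58 ± 0.15) and Krt7 (0.48 ± 0.15) were higher and the hepatocyte gene Apob lower (-1.45 ± 0.33). The macrophage and Kupffer cell sum spanned 11.81 to 12.74 on knockout and 10.71 to 12.16 on wild-type arrays, with 2 of 9 genes called and a median of 0.50, and its part in the Ghr difference was not tested. The Ghr call was lost without knockout arrays 15 and 17, at -0.29 (adjusted p = 0.175), and with the 2 compared groups alone (adjusted p = 0.227). After AM251 the same genotype difference was -0.37 ± 0.11 (adjusted p = 0.116). Every knockout array then lay below every wild-type array, a separation not counted over all genes. The 4 high-fat groups had means between 12.32 and 12.42.

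Igf1, the secreted growth factor, was likewise lowest in chow-fed knockouts, at 10.51 ± 0.17 after AM251 and 10.48 ± 0.17 after vehicle, against 10.95 ± 0.09 after AM251 and 10.73 ± 0.18 after vehicle in chow wild types (SD, n = 5). After AM251 the knockout arrays stood at 10.73, 10.65, 10.35, 10.39 and 10.43. The wild-type arrays stood at 10.85, 11.07, 10.87, 10.97 and 11.01, with no overlap, a separation not counted over all genes. The difference of -0.44 ± 0.10 passed (adjusted p = 0.0384), as did 0.324% of genes, 0.272% as lower. It passed without 1 of the 10 arrays and missed the threshold without each of the other 9. Over all 10, adjusted p lay between 0.0305 and 0.13 and the differences between -0.50 and -0.40. Under vehicle the genotypes differed by -0.25 ± 0.10 on chow (adjusted p = 0.135), and Igf1 passed there without knockout array 18, at -0.32 (adjusted p = 0.0385). High-fat wild-type vehicle livers had 10.59, 10.36, 10.63, 10.45 and 10.73, and their mean of 10.55 ± 0.15 lay close to those of the chow knockouts and below those of the other 5 groups, 10.73 to 10.95.

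Stat5b, the transcription factor gene, was called in none of the 16 liver comparisons. Its liver group means lay between 8.02 ± 0.26 in high-fat wild-type AM251 and 8.35 ± 0.11 in high-fat knockout vehicle livers (SD). The second, dimmer Stat5b probe set, with a mean of 7.36, was not called in any of the 16 liver comparisons either. Its largest difference was 0.41 ± 0.16, for the high-fat diet in vehicle-treated knockouts (adjusted p = 0.076 over all probe sets). These values are transcript levels and say nothing of STAT5B phosphorylation.

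Socs2, the feedback inhibitor and a direct target of growth hormone signalling, varied more within groups than any other member. Its SD around group means was 1.16 on the log2 scale, and nearly all genes varied less within groups. High-fat wild-type livers had 8.12, 7.01, 8.46, 6.87 and 7.44 after AM251, against 4.86, 5.03, 7.16, 7.41 and 6.80 after vehicle. Chow wild-type vehicle livers split in a like way, at 4.58, 5.44, 7.37, 7.75 and 8.58, and chow knockout vehicle array 15 stood at 4.89 below 7.21 to 7.98. The low arrays are numbered 1 and 2 in both wild-type vehicle groups, at -1.39 and -1.22 from the group mean on the high-fat diet and -2.16 and -1.30 on chow, and arrays 3 to 5 lay above the mean in both; the labels do not say what the numbers stand for. Group means lay between 8.02 ± 0.88 in high-fat knockout vehicle and 6.25 ± 1.21 in high-fat wild-type vehicle livers (SD), with neighbours closer than their SDs. No comparison called Socs2 in liver, and its differences had SEs of 0.67 or more, so that a change of the size seen for Cyp7b1 could be missed.

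Bcl6, the repressor with the motif in its promoter windows, also varied widely within groups, with an SD of 1.07 around group means. High-fat knockout AM251 livers lay closest together, at 10.34, 9.99, 10.73, 10.79 and 10.04, whereas chow knockout AM251 livers had 6.59, 8.08, 9.42, 6.93 and 10.68. The groups overlap by array 24. Their difference of 2.04 ± 0.62 missed the threshold (adjusted p = 0.0636), in a comparison that called no member and 2.64% of genes; 4 members had an unadjusted p under 0.05. Bcl6 passed there without chow knockout AM251 array 22 (2.31, adjusted p = 0.045) or 24 (2.62, adjusted p = 0.0106), and Ghr, at 0.36 with all arrays (adjusted p = 0.0538), passed without array 24 (0.41, adjusted p = 0.0317). Chow knockout vehicle livers were at 9.15, 7.28, 7.97, 8.65 and 8.18, and differed from chow wild types by -1.44 ± 0.62 (adjusted p = 0.164). Between the diets in AM251-treated knockouts, Slco1a1 differed by 1.55 ± 0.52 (adjusted p = 0.0923), with every high-fat array above every chow array. With those 2 groups alone, whose SDs were 0.19 each, it passed (adjusted p = 2.02e-05). On chow after AM251, its knockouts differed from wild types by -0.93 ± 0.52 (adjusted p = 0.432), again without overlap. With those 2 groups alone this passed too (adjusted p = 0.00825). These separations were not counted over all genes.

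Cyp2d9, a male-biased steroid hydroxylase gene, stood at percentile 99.8 of all genes in liver and was the steadiest member. Its means lay between 13.83 ± 0.07 in chow knockout AM251 and 13.99 ± 0.12 in chow wild-type vehicle livers (SD), and high-fat wild-type vehicle livers had 13.78, 13.80, 13.85, 13.99 and 14.02. Array 2, at 13.80, lay within the range of the others. Cyp2d9 was called in none of the 16 liver comparisons. Cyp2d9 belongs to a family of near-identical genes whose RNA could bind the same probes, so its values are uncertain in that respect.

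**Figure D3:**
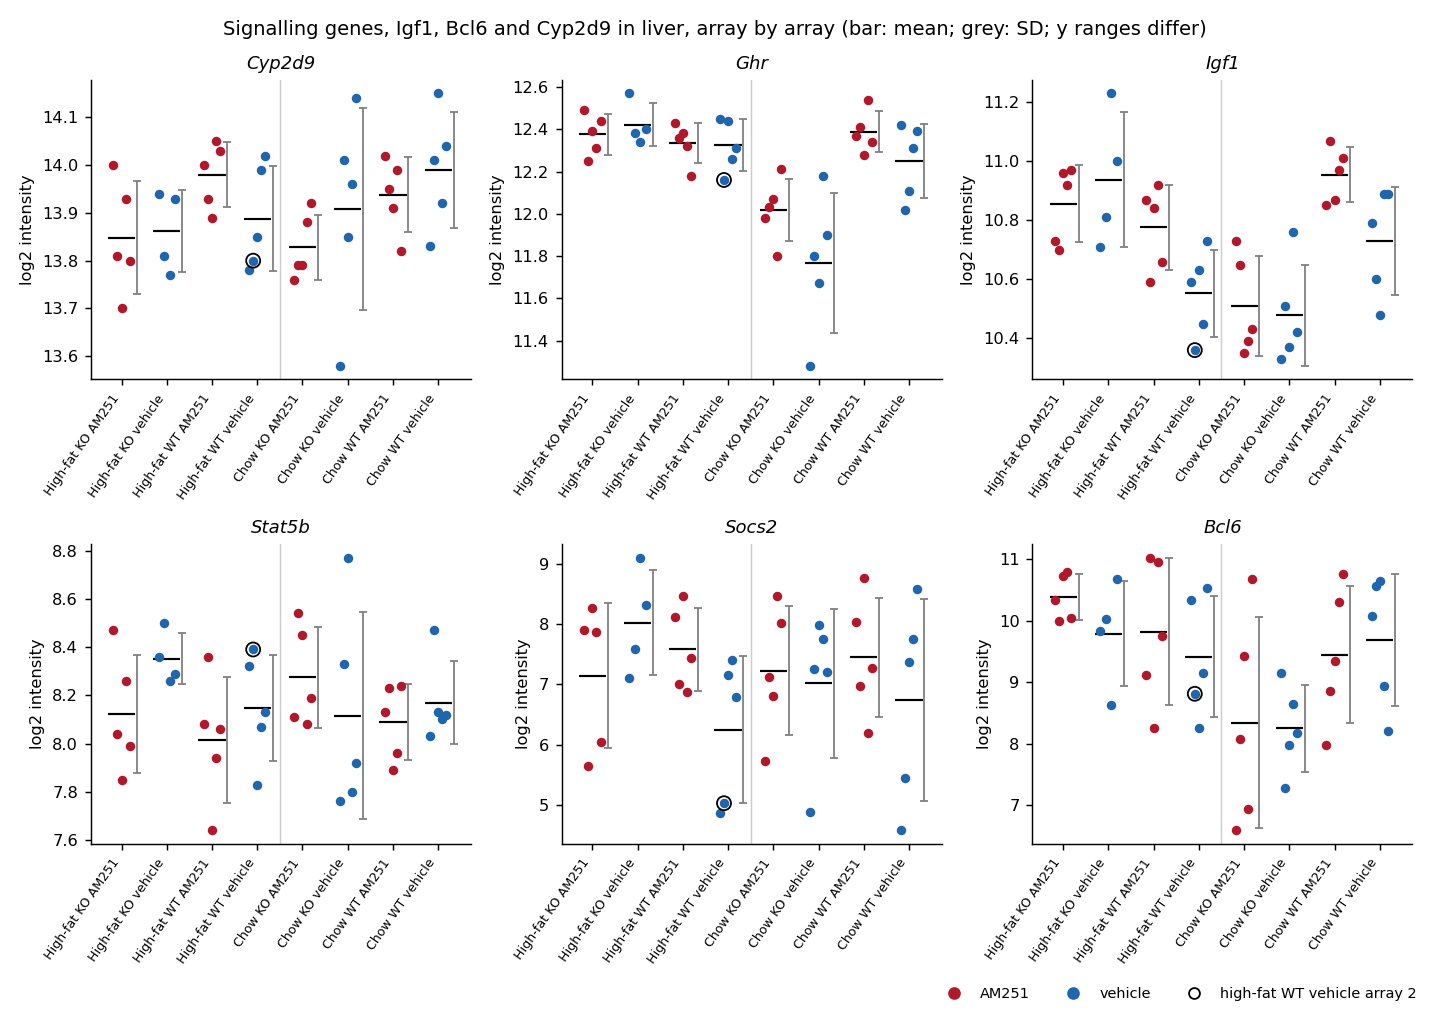
Log2 intensity (y axis, with a range of its own in each panel) of Cyp2d9, Ghr, Igf1, Stat5b, Socs2 and Bcl6 on each liver array by group (x axis). Points are arrays, black bars group means and grey lines ± 1 SD; Ghr and Igf1 are lowest in chow-fed knockouts, and Socs2 and Bcl6 spread over several log2 units within single groups.

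How the members moved together from mouse to mouse was described with each array's deviation from its own group mean, over 39 liver arrays. Slco1a1 followed Hsd3b5 most closely, with Pearson's r = 0.89 and Spearman's rho = 0.63 (permutation test within groups, two-sided, adjusted p = 4.80e-04 and 0.00276 over 8 members). Cyp7b1 had r = 0.60 and rho = 0.56 (adjusted p = 0.00144 and 0.00276), and Socs2 r = 0.46 and rho = 0.41 (adjusted p = 0.00805 and 0.0326). For Igf1 they were 0.41 and 0.47 (adjusted p = 0.017 and 0.0175), and for Ghr 0.35 and 0.21 (adjusted p = 0.0418 and 0.406). Cyp2d9, Stat5b and Bcl6 had r of 0.15, -0.20 and -0.12 and did not pass. The 2 arrays farthest from the median of Hsd3b5 were high-fat wild-type vehicle arrays 2 and 3, at -4.18 and 2.64 from their mean. Without them r was 0.65 for Slco1a1, 0.52 for Cyp7b1 and 0.48 for Socs2 (adjusted p = 0.00736, 0.00736 and 0.0261), and 0.39 for Igf1 and 0.29 for Ghr (adjusted p = 0.0768 and 0.271), so the relations of Igf1 and Ghr did not pass without those arrays. The points share array, labelling and normalization, and deviations within a group of 5 sum to 0.

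**Figure D4:**
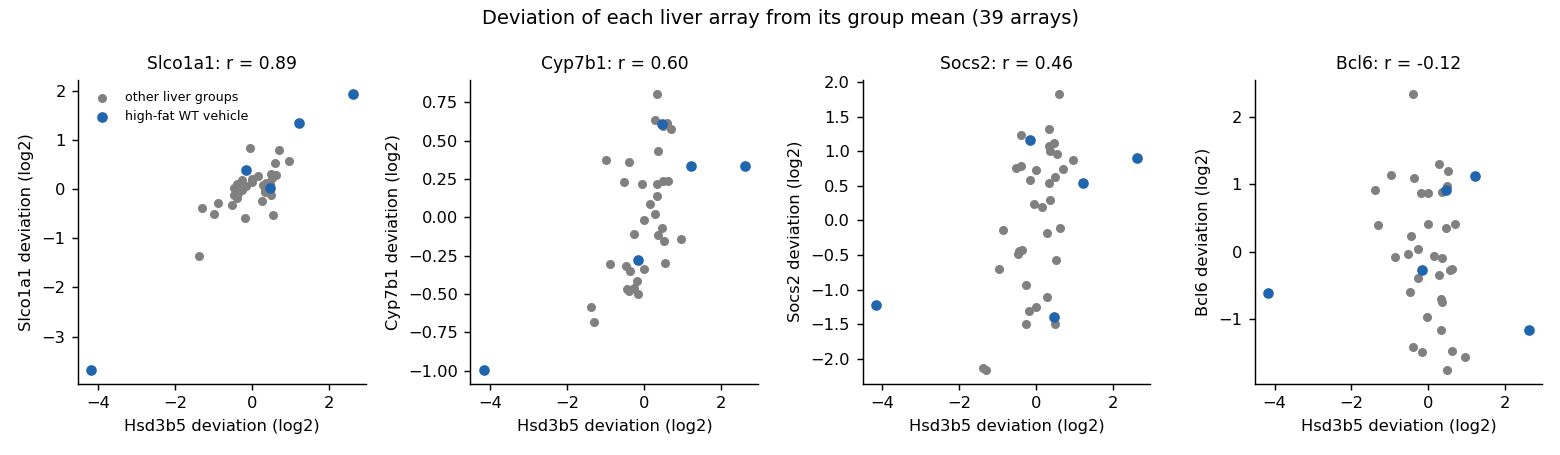
Deviation of each of 39 liver arrays from its group mean, on the log2 scale, for Slco1a1, Cyp7b1, Socs2 and Bcl6 (y axes) against Hsd3b5 (x axes). High-fat wild-type vehicle arrays are blue and the others grey; array 2 at -4.18 is the leftmost point, Slco1a1 follows Hsd3b5 with r = 0.89 and Bcl6 does not, with r = -0.12.

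Over all 39 liver arrays, the non-member genes whose log2 intensity was most like that of Hsd3b5 were Serpina1e (r = 0.94), C8b (0.88), Lifr (0.87), Egfr (0.85) and Cyp2c23 (0.84). Without high-fat wild-type vehicle array 2 the values were 0.86, 0.79, 0.82, 0.75 and 0.71. For Socs2 the nearest were Plcxd2, Wdr45b and Onecut1, each at 0.70, then Mcm10 (0.69) and 3110082I17Rik (0.68), with 0.66 to 0.68 without that array. Bcl6 was nearest to Syne2 (0.72), Bik (0.71), Kank1 (0.71), Gcc2 (0.69) and Hsf2 (0.69). These are descriptions over arrays that share groups and processing, and no test was made.

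Of 20 other male-biased liver genes, 13 were measured. This list and those below were chosen with earlier results of these data known. After AM251 in high-fat wild types 3 of the 13 were called higher and none lower: Keg1 by 1.13 ± 0.22, Egfr by 0.63 ± 0.17 and Serpina1e by 0.61 ± 0.11. Elovl3 differed in the other direction, by -0.63 ± 0.30, and was not called (adjusted p = 0.416). The median difference of the 13 was 0.38, against -0.01 over all genes, of which 0.888% were called higher. Of the 13, 2 were called without vehicle array 2. In high-fat knockouts against wild types under vehicle 7 of the 13 were higher and none lower, where 0.48% of all genes were called higher. The median was 0.86, against -0.01 over all genes. Among the 7 were the glucuronosyltransferase Ugt2b38 (2.45 ± 0.60), Susd4 (1.34 ± 0.29) and the growth factor receptor Egfr (1.09 ± 0.18). Without array 2 the count was 3. On the high-fat diet against chow, vehicle-treated wild types had 7 lower and none higher, where 0.58% of all genes were called lower. The median was -0.71, against -0.01 over all genes. Among the 7 were Ugt2b38 (-2.50 ± 0.57), Keg1 (-1.27 ± 0.22) and Egfr (-0.86 ± 0.17). Without array 2 the count was 5. Ugt2b genes belong to a family of near-identical copies, so the values of Ugt2b38 are uncertain.

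Female-biased genes had list medians between -0.24 and 0.17 in these comparisons, with a few wide changes. Of 22 listed, 17 were measured. AM251 in high-fat wild types lowered 3 past the threshold and raised none past it: the steroid hydroxylase Cyp17a1 (-1.63 ± 0.27), the receptor Ntrk2 (-1.62 ± 0.28) and the hepcidin copy Hamp2 (-1.23 ± 0.24). Cyp4a14 differed in the other direction, by 1.59 ± 0.45, and narrowly missed the threshold (adjusted p = 0.0526). The list's median was -0.07, against -0.01 over all genes, of which 1.91% were called in either direction. All 3 stayed called without vehicle array 2. In high-fat knockouts against wild types under vehicle 5 were lower, among them Cyp2b9 (-4.61 ± 0.74), the peroxisomal oxidase Hao2 (-1.30 ± 0.30) and Ntrk2 (-1.88 ± 0.30). The list median was -0.24, against -0.01 over all genes, of which 1.19% were called in either direction. Of the list, 2 were called without array 2. The high-fat diet in vehicle-treated wild types raised 4, Cyp2b9 by 4.53 ± 0.70, Ntrk2 by 2.01 ± 0.28, Cyp17a1 by 1.55 ± 0.27 and Hao2 by 1.35 ± 0.28, and lowered Cyp3a44 by 0.83 ± 0.14. The list's median was 0.17, against -0.01 over all genes, of which 1.69% were called in either direction. Cyp2b9 has close copies such as Cyp2b13, so its probe set may not be specific to it.

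Livers that lack growth hormone or STAT5 signalling are known to gain genes of fatty acid uptake and storage, and all 10 genes of such a list were measured. In high-fat knockouts against wild types under vehicle 8 of them were lower and none higher, where 1.19% of all genes were called in either direction. The list's median there was -1.50, against -0.01 over all genes. The 8 included the lipid droplet genes Cidea (-3.24 ± 0.52) and Cidec (-2.28 ± 0.45), Mogat1 (-2.31 ± 0.34), the fatty acid carrier Cd36 (-1.85 ± 0.34) and Pparg (-1.19 ± 0.18). Without array 2, 6 were called. The high-fat diet in vehicle-treated wild types raised 5, among them Cidea (2.87 ± 0.49), Cd36 (1.44 ± 0.32) and Mogat1 (1.28 ± 0.32). The median was 1.02, 1.69% of all genes were called in either direction, and 2 of the list were called without array 2. After AM251 in high-fat wild types Cidea alone was called, lower by 1.99 ± 0.49 (adjusted p = 0.0182), the median was -0.28, and none was called without vehicle array 2. AM251-treated knockouts against AM251-treated wild types on this diet had 6 lower, where 2.3% of all genes were called in either direction. The median was -1.13, against -0.03 over all genes, and no member of the growth hormone set passed there.

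**Figure D5:**
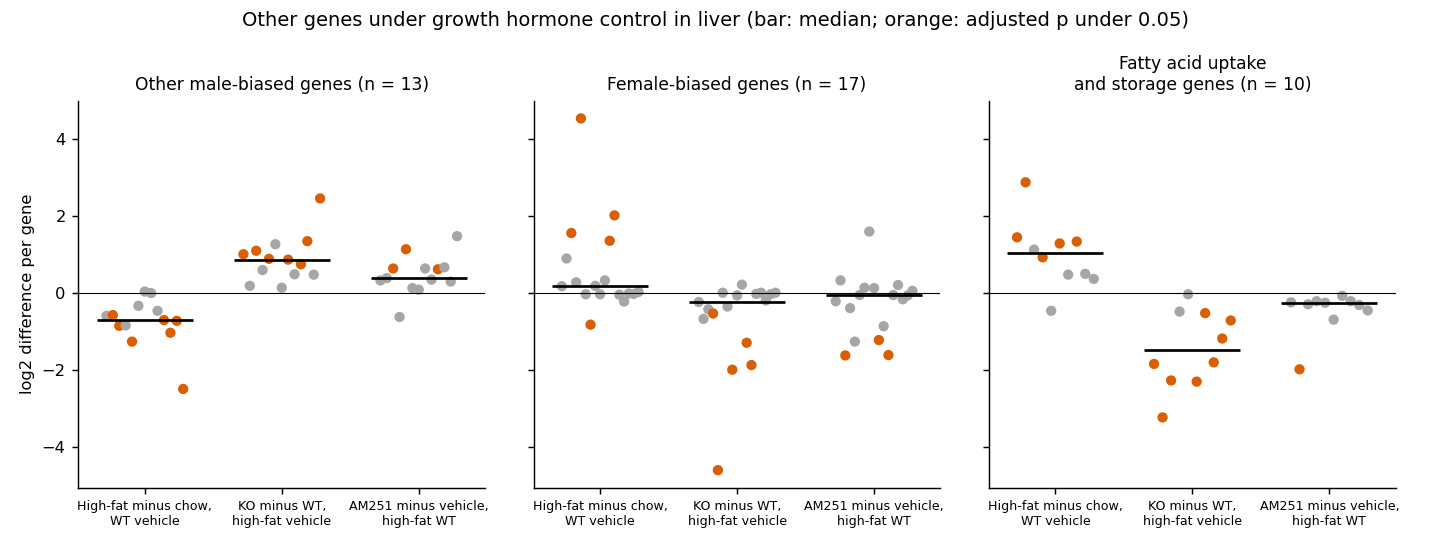
Difference of mean log2 intensity per gene (y axis) in 3 liver comparisons (x axis) for 13 other male-biased genes, 17 female-biased genes and 10 fatty acid uptake and storage genes. Points are genes, orange where adjusted p was under 0.05, and bars are list medians, which are -0.71, 0.86 and 0.38 for the male-biased genes and 1.02, -1.50 and -0.28 for the fatty acid genes.

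Within growth hormone receptor signalling and the IGF1 axis, 19 of 24 listed genes were measured and few changed. AM251 in high-fat wild types raised Igfals, the subunit that holds IGF1 in its circulating complex (0.67 ± 0.16, adjusted p = 0.013), and the binding protein gene Igfbp2 (1.14 ± 0.23, adjusted p = 0.00234), with a list median of 0.06. Igfbp2 was also higher in high-fat knockouts than wild types (1.12 ± 0.24, adjusted p = 0.0108) and lower on the high-fat diet than on chow in wild types (-1.06 ± 0.23, adjusted p = 0.0081). The AM251 effect in wild types exceeded that in knockouts for Igfals (0.98 ± 0.23, adjusted p = 0.0289). Of these, 1 of the 2 AM251 calls remained without vehicle array 2, and the other calls named here did not. Cish, a STAT5 target with the same feedback role as Socs2, differed by -0.03 ± 0.55 after AM251, 0.49 ± 0.58 in knockouts and 0.20 ± 0.55 on the high-fat diet, and Stat5a by 0.15 ± 0.13, -0.13 ± 0.14 and -0.07 ± 0.13 in the same comparisons. Vehicle-treated chow knockouts had higher Socs1 (0.33 ± 0.10) and lower Igf2r (-0.93 ± 0.22) than wild types, neither of which was called without knockout arrays 15 and 17; these are 2 of 19 genes where 6.77% of all genes were called. Of 13 transcription factors tied to sex-biased liver expression, 11 were measured and none was called in any of the 16 liver comparisons, with 0 to 3 of them at an unadjusted p under 0.05 in each.

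In epididymal fat, fitted separately, Hsd3b5, Slco1a1 and Cyp7b1 were dim, at percentiles 11.4, 3.71 and 19.5 of all genes, while Ghr stood at 99.7. No member passed after AM251 in high-fat or chow wild types, with 1 and 0 members at an unadjusted p under 0.05, where 1.11% and 0% of genes were called. The high-fat diet lowered Socs2 in vehicle-treated wild types, with 7.64, 7.59, 7.47, 7.44 and 7.46 on high-fat arrays. Chow arrays had 7.89, 8.0, 7.67, 7.83 and 7.92 and did not overlap these, a separation not counted over all genes. The difference of -0.34 ± 0.12 passed (adjusted p = 0.0345) among 24.5% of genes called, 12.4% as lower, and missed the threshold without 7 of the 10 arrays in turn, at adjusted p up to 0.0858. In the same comparison 5 of 9 macrophage genes were higher, among them Adgre1 (1.66 ± 0.28) and C1qa (0.91 ± 0.13), as was Ptprc (1.56 ± 0.20), and the macrophage sum spanned 13.18 to 14.04 on high-fat and 12.42 to 12.85 on chow arrays. Their part in the Socs2 difference was not tested. Knockouts on the high-fat diet under vehicle had lower Slco1a1 than wild types (-0.38 ± 0.12, adjusted p = 0.0297, with 15.9% of genes called, 8.7% as lower), at log2 intensities of 2.97 ± 0.19 (SD, n = 3) and 3.35 ± 0.17 (SD, n = 5) near the dim end of the scale, and this call was lost without 5 of the 8 arrays in turn. Here 4 of 9 macrophage genes were lower, and their sum spanned 12.60 to 12.69 on knockout and 13.18 to 14.04 on wild-type arrays; their part was not tested. On the high-fat diet against chow in vehicle-treated wild types Slco1a1 differed by 0.27 in fat (adjusted p = 0.0562), and passed without high-fat array 5 (0.33, adjusted p = 0.0248) or chow array 1 (0.39, adjusted p = 0.0028). On chow no member passed between the genotypes under vehicle, with none at an unadjusted p under 0.05 and 0.0575% of genes called.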

How the data were processed

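RNA from 75 samples was hybridised to 1 one-colour array each, 39 of liver and 36 of epididymal fat, with 38385 probe sets. The authors deposited linear intensities per array and probe set, made with RMA per the submitters' processing notes; RMA includes background correction and quantile normalization, so levels are relative and a shift of the whole transcriptome would not be seen. The version of RMA and the array's genome build are not given in the sources used here. The intensities were read as deposited, taken to log2 and fitted with limma 3.58.1 in R 4.3.3 (lmFit, contrasts.fit and eBayes), with 1 mean per group and the 8 groups of each tissue fitted together, tissues apart. Of the probe sets, 24478 carry 1 gene symbol in the platform's table; each of 19147 genes was taken from its brightest probe set on average in that tissue. P-values are two-sided, with Benjamini-Hochberg adjustment over those genes and a threshold of 0.05.

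Groups come from the sample labels, which number the arrays of a group and name no batch. Wild-type vehicle arrays are titled as samples numbered from 1 on each diet. The other groups carry numbers that do not repeat between groups of a tissue, and the labels do not say why the schemes differ. Each array of a tissue was taken as a separate mouse, and the p-values measure the spread between these. The number of arrays per group, 3 to 5, limits the precision. Deviations from group means were tested by 100000 permutations within groups (two-sided, scipy 1.17.1). The genes named were all measured members, up to 6 called genes a list and comparison with the smallest p, and the 5 genes most like Hsd3b5, Socs2 and Bcl6. The members and lists were chosen with earlier results of these data known. Alternatives covered the normalization, array weights, variance model, offset, dim genes, probe set choice, groups fitted, replicate block and each array left out. The 2 vehicle arrays 15 and 17 of chow knockouts were left out together only after the data had been seen, as were all list counts without an array. The scripts were checked on simulated data.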

Additional observations from a re-analysis of the deposited data

Results flagged for a closer look

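Each member was examined in each group of 4 or 5 arrays, which made 126 tests on shared arrays. In 7 of them 1 array stood apart from the rest of its group by Dixon's criterion, where chance gives about 6.3. In liver, Socs2 was 4.89 on chow knockout vehicle array 15, with the nearest array at 7.21, and Stat5b was 8.47 on chow wild-type vehicle array 2, with the nearest at 8.13. In fat, Bcl6 was 11.61 on chow knockout vehicle array 15 (nearest 10.13) and Cyp7b1 4.43 on high-fat wild-type AM251 array 36 (nearest 4.11). Among chow wild-type vehicle arrays of fat, Ghr was 13.36 on array 4 (nearest 13.08), Igf1 10.09 on array 1 (nearest 10.40) and Stat5b 8.92 on array 3 (nearest 9.28). All are log2 intensities.

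For 6 pairs of effects the difference itself passed limma's test. The AM251 effect on Cyp7b1 in wild types exceeded that in knockouts by 2.15 on the high-fat diet (adjusted p = 0.00372). The effect of the high-fat diet under vehicle in knockouts exceeded that in wild types by 3.79 for Hsd3b5 (adjusted p = 0.0144), 3.46 for Slco1a1 (0.00783), 2.16 for Cyp7b1 (0.00191), 0.58 for Ghr (0.0243) and 0.64 for Igf1 (0.0114).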

How the results depend on the processing

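Over 21 called member changes (19 in liver, 2 in fat) and 438 alternative settings, 382 kept direction and call, 56 kept direction and lost the call, and 0 reversed; 29 settings added a call. The calls lost nowhere were 6: Cyp7b1 in its 5 comparisons and Ghr for the high-fat diet in knockouts under vehicle. Causes were not tested. The dim fat signals of Hsd3b5, Slco1a1 and Cyp7b1 limit what can be seen there.

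Counts of members called moved as follows. With the compared groups alone it was 1 for AM251 in high-fat wild types, 1 for knockouts on the high-fat diet under vehicle, 0 for knockouts on chow under vehicle, 1 for the high-fat diet in wild types under vehicle, 2 for the high-fat diet in AM251-treated knockouts, 1 for the genotype difference of the diet effect, and 0 for knockouts on the high-fat diet in fat; fewer samples then set the variance. With array weights it was 2 for knockouts on chow after AM251, 3 for the high-fat diet in AM251-treated knockouts and 0 for knockouts in high-fat fat. With quantile normalization the first of these was 0 and the second 1. With log2(intensity + 16) the second was 2 and the third 0. With brighter genes only the second was 3, the third 0, and the diet difference of the AM251 effect 1, with 9573 genes tested. Robust variance with trend gave 2 for the high-fat diet in wild-type fat. Without chow knockout vehicle arrays 15 and 17 the count was 0 for knockouts on chow under vehicle, 1 for the high-fat diet in knockouts under vehicle and 1 for the genotype difference of the diet effect. Of 5 members moving with Hsd3b5, 3 passed without high-fat wild-type vehicle array 2, and 3 without the 2 farthest arrays.

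With single arrays left out, members called ranged from 2 to 3 for AM251 in high-fat wild types, 2 to 4 for knockouts on the high-fat diet under vehicle, 1 to 2 for knockouts on chow under vehicle, 0 to 1 for knockouts on chow after AM251, 2 to 3 for the high-fat diet in wild types under vehicle, 3 to 3 in knockouts under vehicle and 0 to 2 in knockouts after AM251. They ranged from 1 to 2 for the genotype difference of the AM251 effect, 0 to 1 for its diet difference and 4 to 5 for the genotype difference of the diet effect. In fat they ranged from 0 to 1 for the high-fat diet and 0 to 1 for knockouts on it.

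Of all genes, AM251 in high-fat wild-type liver called 366, against 625 with array weights and 233 to 423 with an array left out. Knockouts on the high-fat diet under vehicle called 228, against 588 and 75 to 255. Knockouts on chow under vehicle called 1297, against 276 with array weights, 3 with the compared groups alone and 154 without arrays 15 and 17. The high-fat diet in knockouts under vehicle called 3252, against 2164, 823 and 1428 under the same settings. The genotype difference of the diet effect called 799, against 161 with the compared groups alone and 198 without arrays 15 and 17.

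Arrays of high-fat and chow wild types under vehicle share numbers, and the labels do not say whether these link the arrays. Deviations of same-numbered arrays correlated between -0.17 and 0.22 in liver and -0.13 and 0.09 in fat. With the number as a replicate block, 1 member and 235 genes were called in liver, against 1 and 163 for the same arrays without the block. In fat the block gave 0 members and 2145 genes, against 0 and 2750 without it.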

Other observations

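In fat, 1 growth hormone and IGF1 axis gene was called after AM251 in high-fat wild types, where no member was: Igfals was lower by 0.93 ± 0.18 (limma, adjusted p = 0.00849). Between high-fat knockouts and wild types under vehicle, 7 of the 19 measured axis genes were called in fat, 3 higher and 4 lower, in a comparison that called 15.9% of all genes. The widest differences were those of the phosphatase gene Ptpn6 (-1.72 ± 0.26), the feedback inhibitor gene Socs3 (-0.98 ± 0.18) and Igf2r (-0.82 ± 0.21), and Stat5a was higher by 0.36 ± 0.12. The leukocyte marker Ptprc (-1.56 ± 0.23) and the macrophage markers Adgre1 (-1.81 ± 0.32), C1qa (-0.81 ± 0.15) and Csf1r (-0.71 ± 0.16) were lower in the same comparison, and their part in the axis genes was not tested.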
